A study of Bos taurus with 8 samples.

Results

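The genes described here build the nuclear pore or carry cargo through it, in cattle embryos at the eight-cell stage. They are the rows whose gene symbol starts with NUP and a digit, KPNA, KPNB, IPO, XPO, TNPO or RANBP, which gave 52 of the 21258 rows in the deposited tables. RANBP1 has 2 rows, so the 52 rows carry 51 symbols. Of the 52, 49 reached at least 1 FPKM (fragments scaled by transcript length and by library size, so a level per length) in at least 2 libraries and were tested. The other 3, RANBP3L, IPO8 and NUP210, were at or below 0.71 FPKM in every library and have no test.

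Proteins and RNAs pass between cytoplasm and nucleus through nuclear pore complexes, which are rings of nucleoporins set in the nuclear envelope. Importin alphas bind the nuclear localisation signal of a cargo and hand it to importin beta, other importins and transportins bind cargo themselves, exportins carry cargo out, and the small GTPase Ran sets the direction. An early embryo begins with the transport machinery stored in the egg, and in cattle the main switch to transcription from the embryo's own genome begins around the stage sampled here. KPNA7 is an importin alpha known in cattle for its expression in oocytes and early embryos.

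RNA came from pools of 8 Holstein embryos, with 2 libraries of cloned embryos made by somatic cell nuclear transfer (SCNT) and overexpressing the histone demethylase KDM4E (KDM4E-SCNT), 3 libraries of embryos from in vitro fertilisation (IVF), and 3 libraries of SCNT embryos without KDM4E overexpression, which the study sets as the control of both other groups. The KDM4E-SCNT embryos therefore share the nuclear transfer with their control, and the IVF embryos do not. The means of KDM4E overexpression, the donor cells and the age of the embryos in hours are not stated in the labels. Nor is it stated that pools within a group were separate batches, so p-values describe the spread between these libraries alone and part of it may be technical. No row carries the symbol KDM4E, and the overexpression was not checked against its transcript.

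The libraries held 10975 to 13050 rows with at least 1 FPKM, and their depth is unknown because the files give no counts. All 8 of the oocyte-derived transcripts used as a check (GDF9, BMP15, ZP2, ZP3, NLRP5, ZAR1, H1FOO and DPPA3) were above 1 FPKM in all libraries, and their summed level was 4975 to 6550 FPKM in KDM4E-SCNT, 7998 to 8479 FPKM in IVF and 1450 to 2068 FPKM in SCNT. Summed fibroblast markers, 15 of 15 found, ran from 86.1 to 375.9 FPKM in KDM4E-SCNT, with the higher value in replicate 2, from 24.2 to 48.1 FPKM in IVF and from 101 to 172 FPKM in SCNT; COL6A1, COL6A2 and TAGLN were listed at 0 in all IVF libraries, and COL6A2 and THY1 in all SCNT libraries. Summed cumulus and granulosa markers, 9 of 10 found, were 46.1 to 99.7 FPKM in KDM4E-SCNT, 102 to 163 FPKM in IVF and 16.9 to 25.5 FPKM in SCNT. FSHR was listed at 0 in all KDM4E-SCNT and SCNT libraries, PTX3 in all SCNT libraries and AMH in all IVF libraries. HAS2 had 41.8 to 70.3 FPKM in IVF and 4.87 to 9.56 FPKM in SCNT, and STAR 41.2 to 86.6 and 5.08 to 11.1 FPKM. TNFAIP6 went the other way, with 0.83 to 2.64 FPKM in IVF and 3.70 to 8.19 FPKM in SCNT. Summed sperm markers, 8 of 10 found, were 48.0 to 56.1 FPKM in KDM4E-SCNT, 70.2 to 92.7 FPKM in IVF and 25.9 to 41.8 FPKM in SCNT, with TNP2 listed at 0 in all KDM4E-SCNT and IVF libraries, TNP1 in all IVF libraries, and AKAP4 and ODF1 in all SCNT libraries. The sperm list did not move as one either. LDHC had 59.6 to 80.9 FPKM in IVF and 4.51 to 5.73 FPKM in SCNT, whereas CRISP2 had 1.15 to 2.73 FPKM in IVF and 17.5 to 34.3 FPKM in SCNT. The part of these RNAs in the differences below was not tested, and fewer cells of a type and less RNA per cell cannot be told apart in pooled embryos. Mitochondrially encoded genes held 11.04% to 11.5% of the summed FPKM in KDM4E-SCNT, 6.08% to 7.11% in IVF and 7.54% to 10.6% in SCNT. Leaving those genes out is one of the 18 alternatives.

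Together the 52 rows took a small part of all FPKM, and it was larger in both other groups than in SCNT. Their share was 0.360% and 0.491% in the KDM4E-SCNT libraries, 0.558%, 0.472% and 0.532% in the IVF libraries, and 0.254%, 0.228% and 0.280% in the SCNT libraries. The groups KDM4E-SCNT and SCNT did not overlap, nor did IVF and SCNT. Most of the gap lay in the importin alphas, whose summed level was 1294 and 1818 FPKM in KDM4E-SCNT, 2537, 1562 and 2215 FPKM in IVF, and 546, 427 and 573.6 FPKM in SCNT. Importin alphas other than KPNA7 and KPNA2 were together highest in SCNT. Their sum was 158 and 98.9 FPKM in KDM4E-SCNT, 42.2, 118 and 67.4 FPKM in IVF, and 229, 185 and 243 FPKM in SCNT. The sums over exportins and over importin betas and transportins had the opposite order, as described with those genes.

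With IVF set against SCNT, 14 of the 49 tested members rose, 15 fell and 20 did not pass (limma, adjusted p under 0.05). Over all 14839 rows tested, 34.9% were called higher and 23.6% lower, 58.5% in all. The members' shares were 28.6% higher and 30.6% lower, and their median log2 difference was 0.15, beside 0.39 over all rows tested. With KDM4E-SCNT set against SCNT, 7 members rose, 7 fell and 35 did not pass, or 14.3% in each direction. Over all rows tested in that comparison 21.6% were called higher and 11% lower, 32.6% in all, and the median log2 difference was 0.01 for the members and 0.32 for all rows. With KDM4E-SCNT set against IVF, 2 members rose, none fell and 47 did not pass, where 5.9% of all rows were called higher and 0.62% lower, 6.52% in all. Without adjustment, 8 members were higher and 2 lower in this last comparison at p under 0.05 (limma). Scaling by median ratios lowered the median of all rows to 0.10 in IVF against SCNT and to 0.02 in KDM4E-SCNT against SCNT, and then 7 members rose and 19 fell in the first comparison and 4 rose and 14 fell in the second. Of all rows tested, 28.0% were then called higher and 29.2% lower in the first comparison, and 14.2% and 18.6% in the second. That scaling ended the higher calls of both RANBP1 rows, KPNA6, NUP35, NUP93, NUP214 and IPO9 in IVF, and those of RANBP1, NUP35 and NUP188 in KDM4E-SCNT. No called member changed sign under any of the 18 alternative settings.

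**Figure D1:**
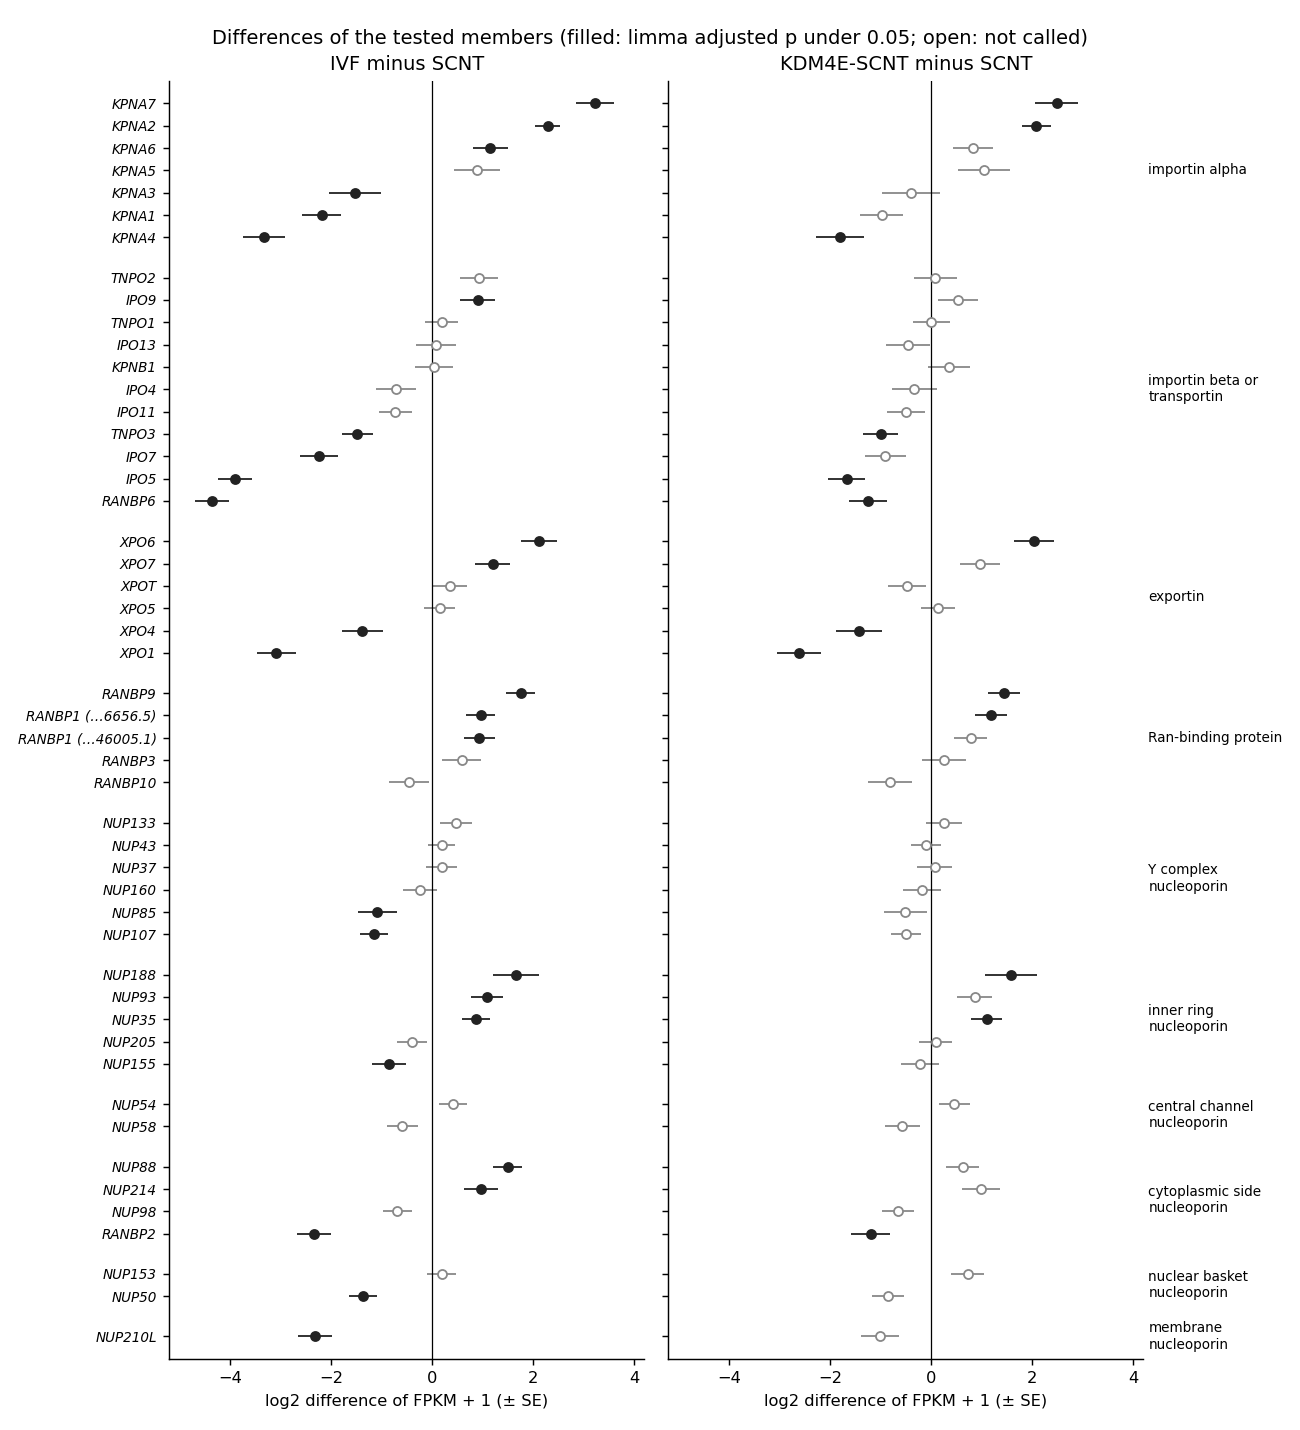
Log2 differences of FPKM + 1 for the 49 tested members, with standard errors, in IVF minus SCNT (left) and KDM4E-SCNT minus SCNT (right), both set against the same 3 SCNT libraries; filled points passed the limma test at an adjusted p under 0.05 and open points did not. KPNA7 and KPNA2 lie far to the right and XPO1 far to the left in both panels.

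The importin alphas split into 2 very abundant transcripts that were high outside SCNT and a set of less abundant ones, several of which were highest in SCNT. KPNA7 (chromosome 25, 37664542 to 37691692, build UMD3.1) had 509 and 729.6 FPKM in KDM4E-SCNT, 1565, 514 and 1291 FPKM in IVF, and 99.4, 88.9 and 141 FPKM in SCNT. Every KDM4E-SCNT and IVF library was above every SCNT library, and IVF replicate 2 stood with the KDM4E-SCNT libraries and below its own group. Against SCNT, the gene rose 9.34-fold in IVF (log2 difference 3.22 ± 0.38, SE, adjusted p = 2.08e-05) and 5.62-fold in KDM4E-SCNT (2.49 ± 0.42, adjusted p = 0.00173). The difference of KDM4E-SCNT from IVF did not pass (-0.73 ± 0.42, adjusted p = 0.37). The summed oocyte-derived transcripts given above have the same order of groups as KPNA7, and whether the KPNA7 difference is separate from theirs was not tested. DPPA3 was the largest part of that sum in every library, with 4577, 5698 and 5176 FPKM in IVF. Within IVF, H1FOO, ZP2, ZP3 and BMP15 were lowest in replicate 2, as KPNA7 was, and ZAR1, GDF9, NLRP5 and DPPA3 were highest there.

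KPNA2, an importin alpha known for its abundance in dividing cells, had 628 and 989.97 FPKM in KDM4E-SCNT, 929, 930.1 and 856 FPKM in IVF, and 217, 154 and 189.8 FPKM in SCNT. The lowest KDM4E-SCNT library lay below all IVF libraries and the highest above them, and both were far above SCNT. KPNA2 (chromosome 19, 49569375 to 49579204) rose by 2.28 ± 0.26 in IVF (adjusted p = 1.47e-05) and by 2.08 ± 0.29 in KDM4E-SCNT (adjusted p = 0.000779), each against SCNT on the log2 scale. By their mean over all libraries, KPNA7 and KPNA2 stood at percentiles 98.9 and 98.8 of the rows tested. KPNA6, a member of the subfamily that also holds KPNA1 and KPNA5, averaged 12.1 ± 5.15 FPKM over the 2 KDM4E-SCNT libraries, 14.8 ± 1.39 FPKM over the 3 IVF libraries and 6.29 ± 2.11 FPKM over the 3 SCNT libraries (SD), and rose in IVF against SCNT (1.15 ± 0.35, adjusted p = 0.0133). That call was lost without SCNT replicate 1, the lowest SCNT library, at 0.88 and an adjusted p of 0.0671. KPNA5 had no call against SCNT in either group, with 15.8 and 18.7 FPKM in KDM4E-SCNT, 8.59, 36.6 and 11.1 FPKM in IVF, and 5.55, 10.7 and 7.91 FPKM in SCNT.

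KPNA4, KPNA1 and KPNA3 had the reverse order. KPNA4 (chromosome 1, 107774353 to 107834443) had 55.9 and 16.0 FPKM in KDM4E-SCNT, 8.04, 15.5 and 7.58 FPKM in IVF, and 104, 98.2 and 123 FPKM in SCNT. It fell in IVF against SCNT (-3.32 ± 0.42, adjusted p = 3.55e-05) and in KDM4E-SCNT against SCNT (-1.80 ± 0.47, adjusted p = 0.0121). The 2 KDM4E-SCNT libraries were far apart, with replicate 2 beside the IVF libraries. On the log2 scale replicate 1 lay 28.1% and replicate 2 80.4% of the way from the SCNT mean to the IVF mean. Without replicate 2 the difference from SCNT was only -0.93 and the call was lost. KPNA1 had 25.1 and 13.4 FPKM in KDM4E-SCNT, 4.17, 8.77 and 10.6 FPKM in IVF, and 43.1, 27.0 and 44.0 FPKM in SCNT, with no overlap between any of the groups. Only the IVF difference from SCNT passed for KPNA1 (-2.19 ± 0.38, adjusted p = 0.000391), and the KDM4E-SCNT difference from SCNT was -0.98 ± 0.43 (adjusted p = 0.0957). KPNA3, the close relative of KPNA4, averaged 43.8 ± 12.3 FPKM over the 2 KDM4E-SCNT libraries, 24.1 ± 17.3 FPKM over the 3 IVF libraries and 58.4 ± 16.2 FPKM over the 3 SCNT libraries (SD), and its fall in IVF (-1.53 ± 0.51, adjusted p = 0.0218) was lost without IVF replicate 1 (-0.81, adjusted p = 0.0825), without SCNT replicate 1 (adjusted p = 0.0756) and without SCNT replicate 3 (adjusted p = 0.0626). Reads that match both members of a close pair could be split between them in the authors' values.

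**Figure D2:**
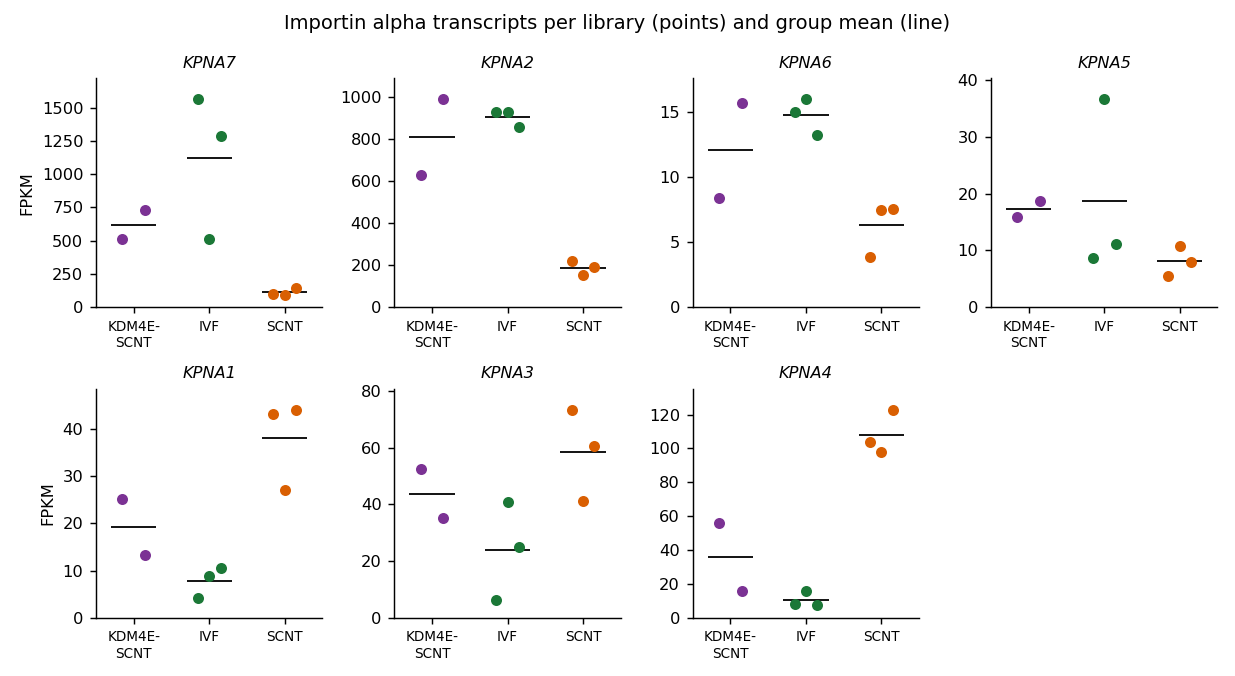
FPKM of the 7 importin alpha transcripts in each library, with points for libraries, a line at each group's mean and an axis from 0 in every panel. KPNA7 and KPNA2 are lowest in the 3 SCNT libraries, and KPNA1 and KPNA4 are highest there.

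The mixture of importin alpha transcripts differed accordingly. KPNA7 made up 39.3% and 40.1% of the summed importin alpha FPKM in KDM4E-SCNT, 61.7%, 32.9% and 58.3% in IVF, and 18.2%, 20.8% and 24.6% in SCNT. The 5 members other than KPNA7 and KPNA2 together made up 12.2% and 5.44% in KDM4E-SCNT, 1.67%, 7.55% and 3.04% in IVF, and 42.0%, 43.2% and 42.3% in SCNT. KPNA2 was the largest single part of the sum in both KDM4E-SCNT libraries, in IVF replicate 2 and in all 3 SCNT libraries, with 48.5% and 54.4% in KDM4E-SCNT, 36.6%, 59.5% and 38.7% in IVF, and 39.8%, 36.0% and 33.1% in SCNT. With 3 libraries against 3 an exact permutation test cannot go below 0.10, and the shares are given as a description.

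**Figure D3:**
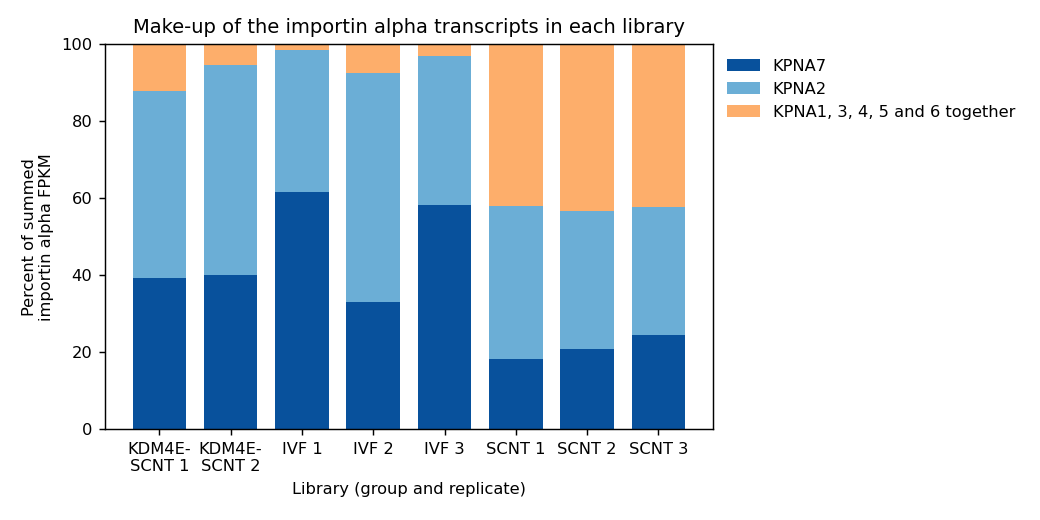
Share of the summed importin alpha FPKM held by KPNA7, KPNA2 and the other 5 members in each library, as stacked bars from 0 to 100%. The other 5 members hold 42.0% to 43.2% in SCNT and at most 12.2% in any other library.

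Among importin betas and transportins, which bind cargo directly or through importin alpha, 1 of 11 tested members rose and 4 fell in IVF against SCNT, and none rose (limma; none at an unadjusted p under 0.05 either) and 3 fell in KDM4E-SCNT against SCNT. Over all rows tested, 34.9% rose and 23.6% fell in IVF against SCNT, and 21.6% rose and 11% fell in KDM4E-SCNT against SCNT. The summed level of the importin betas and transportins was 89.6 and 72.5 FPKM in KDM4E-SCNT, 56.3, 46.5 and 57.6 FPKM in IVF, and 156, 159 and 146 FPKM in SCNT. IPO5, which imports ribosomal proteins and core histones, had 18.5 and 10.7 FPKM in KDM4E-SCNT, 2.2, 1.44 and 3.32 FPKM in IVF, and 51.2, 47.1 and 43.5 FPKM in SCNT. The 3 groups did not overlap, with KDM4E-SCNT between the other two. IPO5 (chromosome 12, 79000723 to 79039990) fell by 3.90 ± 0.33 in IVF against SCNT (adjusted p = 2.46e-06) and by 1.67 ± 0.37 in KDM4E-SCNT against SCNT (adjusted p = 0.00601), and was 2.23 ± 0.37 higher in KDM4E-SCNT than in IVF (adjusted p = 0.00318). Without KDM4E-SCNT replicate 2 the difference from SCNT was -1.31 (adjusted p = 0.0787), and without KDM4E-SCNT replicate 1 the difference from IVF was 1.86 (adjusted p = 0.0653).

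RANBP6, a sequence relative of IPO5, was the member with the largest difference between IVF and SCNT among the 49 tested. It had 11.7 and 6.33 FPKM in KDM4E-SCNT, was listed at 0 and had 0.16 and 0.20 FPKM in IVF, and had 20.2, 19.98 and 26.2 FPKM in SCNT. The IVF libraries were at or near 0 while every cloned embryo library, with or without KDM4E, was above 6 FPKM. RANBP6 (chromosome 8, 38922907 to 38926224) differed by -4.36 ± 0.34 in IVF against SCNT (adjusted p = 1.28e-06), by -1.25 ± 0.38 in KDM4E-SCNT against SCNT (adjusted p = 0.0242) and by 3.11 ± 0.38 in KDM4E-SCNT against IVF (adjusted p = 0.00048). The call against SCNT in KDM4E-SCNT was lost without KDM4E-SCNT replicate 2 (-0.85, adjusted p = 0.215), without SCNT replicate 1 (adjusted p = 0.0553) and without SCNT replicate 3 (adjusted p = 0.0859), and also with a pseudocount of 0.1 (adjusted p = 0.108) and with a replicate block (adjusted p = 0.053), whereas both differences from IVF kept their calls under all 18 alternatives.

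IPO7, which imports ribosomal proteins and linker histone together with importin beta, had 6.86 and 3.34 FPKM in KDM4E-SCNT, 0.65, 1.5 and 2.0 FPKM in IVF, and 9.45, 11.95 and 8.61 FPKM in SCNT. It fell in IVF against SCNT (-2.24 ± 0.37, adjusted p = 0.000247), and its differences of -0.90 ± 0.41 from SCNT (adjusted p = 0.109) and 1.34 ± 0.41 from IVF (adjusted p = 0.0789) in KDM4E-SCNT did not pass. TNPO3, the import receptor of SR splicing factors, had 18.1 and 11.2 FPKM in KDM4E-SCNT, 11.8, 8.98 and 9.20 FPKM in IVF, and 34.9, 30.9 and 23.7 FPKM in SCNT. KDM4E-SCNT overlapped IVF at TNPO3, and both lay below SCNT. TNPO3 fell in IVF (-1.48 ± 0.31, adjusted p = 0.00141) and, narrowly, in KDM4E-SCNT (-0.996 ± 0.35, adjusted p = 0.0437), each against SCNT. The KDM4E-SCNT call was lost without KDM4E-SCNT replicate 2 (-0.67, adjusted p = 0.295), and also without SCNT replicate 1, 2 or 3 or IVF replicate 3 (adjusted p = 0.129, 0.0882, 0.0585 and 0.0627).

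KPNB1, the importin beta that partners the importin alphas, was low and gave no call in any comparison. It had 4.12 and 3.63 FPKM in KDM4E-SCNT, 2.89, 4.66 and 1.70 FPKM in IVF, and 1.84, 3.51 and 3.24 FPKM in SCNT, with IVF overlapping both other groups. Its difference was 0.04 ± 0.37 in IVF against SCNT (adjusted p = 0.926) and 0.36 ± 0.42 in KDM4E-SCNT against SCNT (adjusted p = 0.521). On this scale per length, the summed importin alphas stood 314-fold and 501-fold above KPNB1 in the KDM4E-SCNT libraries, 335-fold to 1303-fold above it in the IVF libraries and 122-fold to 297-fold above it in the SCNT libraries. IPO9, an importin of histones H2A and H2B, averaged 1.80 ± 0.98 FPKM over the 2 KDM4E-SCNT libraries, 2.54 ± 0.56 FPKM over the 3 IVF libraries and 0.877 ± 0.029 FPKM over the 3 SCNT libraries (SD), and its rise in IVF (0.90 ± 0.35, adjusted p = 0.0412) was lost when any of the IVF or SCNT libraries was left out. The remaining tested members, TNPO1, TNPO2, IPO4, IPO11 and IPO13, had no call in any of the 3 comparisons.

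**Figure D4:**
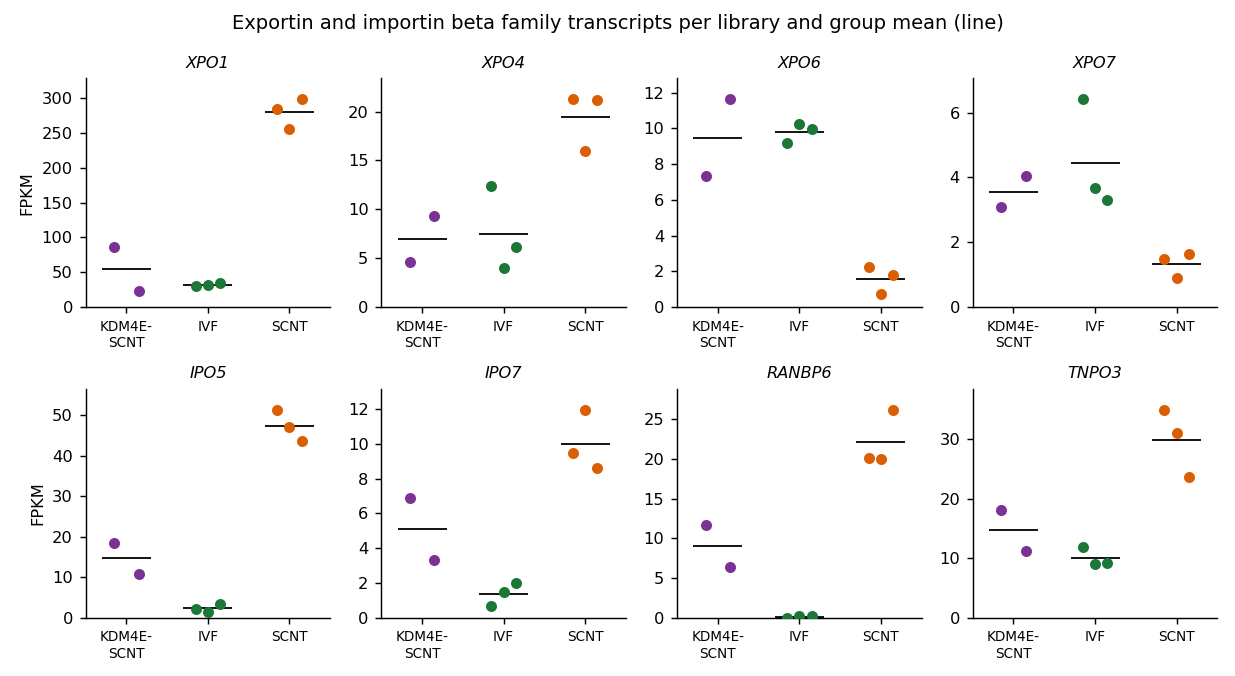
FPKM of 4 exportins (top) and 4 members of the importin beta and transportin group (bottom) in each library, with a line at each group's mean and an axis from 0 in every panel. XPO1, XPO4, IPO5, IPO7, RANBP6 and TNPO3 are highest in the 3 SCNT libraries, and XPO6 and XPO7 are lowest there.

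Exportins moved in both directions. XPO1, the receptor for cargo with a leucine-rich export signal, had 86.7 and 23.1 FPKM in KDM4E-SCNT, 30.8, 31.2 and 34.5 FPKM in IVF, and 284, 256 and 298.7 FPKM in SCNT. All SCNT libraries were far above the rest, IVF libraries were close to each other, and the 2 KDM4E-SCNT libraries fell on either side of IVF. XPO1 (chromosome 11, 60068221 to 60109922) fell in IVF (-3.08 ± 0.39, adjusted p = 3.51e-05) and in KDM4E-SCNT (-2.61 ± 0.44, adjusted p = 0.00157), each against SCNT, and it was the one of the 7 falls in KDM4E-SCNT that held under all 18 alternatives. KDM4E-SCNT minus IVF was 0.47 ± 0.44 (adjusted p = 0.598), but 1.41 without KDM4E-SCNT replicate 2 (adjusted p = 0.0236). XPO1 was most of the exportin sum in SCNT but not in KDM4E-SCNT replicate 2 or any IVF library, and that sum was 116 and 63.4 FPKM in KDM4E-SCNT, 85.3, 66.0 and 75.6 FPKM in IVF, and 330.2, 289 and 340.3 FPKM in SCNT.

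XPO4, an exportin of the translation factor eIF5A, had 4.56 and 9.29 FPKM in KDM4E-SCNT, 12.4, 3.98 and 6.15 FPKM in IVF, and 21.3, 16.0 and 21.2 FPKM in SCNT. It fell in IVF (-1.38 ± 0.40, adjusted p = 0.0104) and in KDM4E-SCNT (-1.42 ± 0.45, adjusted p = 0.0288), each against SCNT. The second of these calls was lost without KDM4E-SCNT replicate 1 (-0.98, adjusted p = 0.186) or 2 (-1.87, adjusted p = 0.0512) and without SCNT replicate 1 or 3 (adjusted p = 0.0795 and 0.0823), with no filter on low values (adjusted p = 0.0587) and with a replicate block (adjusted p = 0.0501). XPO6, which exports actin bound to profilin, had 7.33 and 11.6 FPKM in KDM4E-SCNT, 9.18, 10.3 and 9.99 FPKM in IVF, and 2.22, 0.72 and 1.80 FPKM in SCNT. It rose in IVF (2.12 ± 0.35, adjusted p = 0.000259) and in KDM4E-SCNT (2.04 ± 0.39, adjusted p = 0.00291), each against SCNT, and both calls held under all 18 alternatives. XPO7 was lower in level, with 3.07 and 4.03 FPKM in KDM4E-SCNT, 6.41, 3.67 and 3.29 FPKM in IVF, and 1.47, 0.89 and 1.64 FPKM in SCNT, and it rose in IVF (1.197 ± 0.353, adjusted p = 0.0112) but did not pass in KDM4E-SCNT (0.97 ± 0.40, adjusted p = 0.0754).

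The tRNA exportin XPOT had 7.88 and 6.74 FPKM in KDM4E-SCNT, 17.9, 9.90 and 14.1 FPKM in IVF, and 13.5, 7.61 and 11.1 FPKM in SCNT. KDM4E-SCNT lay below IVF without overlap, and the difference of -0.82 ± 0.38 did not pass (adjusted p = 0.254). XPO5, which exports the precursors of microRNAs, averaged 7.68 ± 1.32 FPKM over the 2 KDM4E-SCNT libraries, 7.71 ± 0.87 FPKM over the 3 IVF libraries and 6.88 ± 0.96 FPKM over the 3 SCNT libraries (SD), with no call in any comparison.

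The 5 tested rows of Ran-binding proteins outside the pore belong to 4 genes, since RANBP1 has 2 rows. RANBP9 and both RANBP1 rows rose in IVF against SCNT, RANBP9 and 1 RANBP1 row rose in KDM4E-SCNT against SCNT, and none fell in either (limma; none fell at an unadjusted p under 0.05). Of all rows tested, 34.9% rose and 23.6% fell in the first comparison, and 21.6% rose and 11% fell in the second. RANBP9, a scaffold subunit of the CTLH ubiquitin ligase, had 141 and 141 FPKM in KDM4E-SCNT, 148, 240.4 and 148 FPKM in IVF, and 40.7, 58.2 and 55.9 FPKM in SCNT. Both other groups lay above every SCNT library, and RANBP9 rose in IVF (1.75 ± 0.28, adjusted p = 0.000224) and in KDM4E-SCNT (1.45 ± 0.32, adjusted p = 0.00562), each against SCNT and under all 18 alternatives. RANBP1, which helps RanGAP to end the GTP-bound state of Ran in the cytoplasm, has 2 neighbouring rows on chromosome 17, whose reads the authors' counting could have split. The row at 75036894 to 75038127 had 85.0 and 97.7 FPKM in KDM4E-SCNT, 76.2, 105 and 59.4 FPKM in IVF, and 36.4, 42.0 and 40.7 FPKM in SCNT, and the row at 75007343 to 75010260 had 14.6 and 18.4 FPKM in KDM4E-SCNT, 18.6, 20.1 and 16.6 FPKM in IVF, and 10.8, 9.74 and 7.17 FPKM in SCNT. At both rows each KDM4E-SCNT and IVF library was above each SCNT library.

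The first row rose in IVF (0.96 ± 0.28, adjusted p = 0.0111) and in KDM4E-SCNT (1.18 ± 0.32, adjusted p = 0.0137) against SCNT. The second RANBP1 row rose in IVF (0.94 ± 0.30, adjusted p = 0.0166), with 0.78 ± 0.33 in KDM4E-SCNT (adjusted p = 0.0878). Without KDM4E-SCNT replicate 2 the first row's difference was 1.08 (adjusted p = 0.0956), and without SCNT replicate 3 the second row's IVF difference was 0.78 (adjusted p = 0.0767). RANBP3, a cofactor of XPO1, had 2.65 and 6.93 FPKM in KDM4E-SCNT, 5.79, 8.40 and 3.81 FPKM in IVF, and 3.77, 3.05 and 3.69 FPKM in SCNT, and no difference passed. RANBP10, a relative of RANBP9, was at or below 2.36 FPKM in every library and also gave no call.

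Of the 20 tested nucleoporins, 5 were higher and 6 lower in IVF against SCNT, 2 higher and 1 lower in KDM4E-SCNT against SCNT, and none called in KDM4E-SCNT against IVF (limma; 3 higher and 1 lower at an unadjusted p under 0.05). Beside these counts and those of the pore parts below, 34.9% of all rows tested were higher and 23.6% lower in IVF against SCNT. In KDM4E-SCNT against SCNT 21.6% of all rows were higher and 11% lower. The median log2 difference of the 20 nucleoporins was -0.03 in IVF against SCNT and -0.02 in KDM4E-SCNT against SCNT, beside 0.39 and 0.325 over all rows. The summed level of the nucleoporin members was 1155 and 1478 FPKM in KDM4E-SCNT, 1215, 1269 and 1329 FPKM in IVF, and 1021, 933 and 1108 FPKM in SCNT.

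In the inner ring, 3 of 5 members rose and 1 fell in IVF, and 2 rose in KDM4E-SCNT, each against SCNT. NUP35, which binds the pore membrane and had the highest FPKM of the nucleoporin members in every library, had 369 and 636.6 FPKM in KDM4E-SCNT, 323, 470.5 and 463 FPKM in IVF, and 237, 219 and 219.6 FPKM in SCNT. The SCNT libraries were close together and below all others, and NUP35 (chromosome 2, 13455252 to 13487222) rose in IVF (0.87 ± 0.27, adjusted p = 0.0157) and in KDM4E-SCNT (1.10 ± 0.31, adjusted p = 0.0165). Its call in KDM4E-SCNT was lost without KDM4E-SCNT replicate 2 (0.71, adjusted p = 0.167) and without SCNT replicate 3 (adjusted p = 0.0533), and its call in IVF was lost without IVF replicate 3 (adjusted p = 0.0641) and without SCNT replicate 3 (adjusted p = 0.0519). NUP35 made up 31.9% and 43.1% of that summed level in KDM4E-SCNT, 26.6%, 37.1% and 34.9% in IVF, and 23.2%, 23.5% and 19.8% in SCNT.

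NUP93, a scaffold subunit that joins the ring to the central channel, had 16.8 and 26.5 FPKM in KDM4E-SCNT, 31.1, 21.7 and 22.7 FPKM in IVF, and 13.6, 11.2 and 9.10 FPKM in SCNT. It rose in IVF (1.09 ± 0.31, adjusted p = 0.00983), and its difference of 0.86 ± 0.35 in KDM4E-SCNT did not pass (adjusted p = 0.0747). NUP188, a large inner ring scaffold, had 4.29 and 5.99 FPKM in KDM4E-SCNT, 11.8, 3.32 and 3.90 FPKM in IVF, and 0.56, 0.70 and 2.21 FPKM in SCNT. It rose in IVF (1.67 ± 0.46, adjusted p = 0.0075) and in KDM4E-SCNT (1.57 ± 0.51, adjusted p = 0.0328), and the KDM4E-SCNT call was lost without KDM4E-SCNT replicate 1 or 2 (adjusted p = 0.0628 and 0.189) and without SCNT replicate 1 or 2 (adjusted p = 0.103 and 0.0802). NUP155 went the other way, with 23.2 and 15.7 FPKM in KDM4E-SCNT, 8.47, 10.9 and 17.9 FPKM in IVF, and 18.9, 24.8 and 23.7 FPKM in SCNT, and it fell in IVF (-0.86 ± 0.33, adjusted p = 0.0421). That call was lost without any one of IVF replicates 1 and 2 and SCNT replicates 1, 2 and 3, with adjusted p from 0.0548 to 0.147. NUP205, the relative of NUP188, had no call in any comparison.

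In the Y complex, the outer scaffold ring of the pore, 2 of 6 members fell and none rose in IVF, and none was called in KDM4E-SCNT, each against SCNT (limma; no rise in IVF and no change in KDM4E-SCNT at an unadjusted p under 0.05 either). NUP107 had 56.2 and 60.3 FPKM in KDM4E-SCNT, 32.2, 40.2 and 37.8 FPKM in IVF, and 82.5, 68.6 and 98.7 FPKM in SCNT. The 3 groups did not overlap, with KDM4E-SCNT in the middle, and only the IVF difference from SCNT passed (-1.15 ± 0.27, adjusted p = 0.0027), beside -0.49 ± 0.30 in KDM4E-SCNT against SCNT (adjusted p = 0.219). NUP85 had 5.12 and 11.8 FPKM in KDM4E-SCNT, 3.92, 5.58 and 5.47 FPKM in IVF, and 10.6, 17.6 and 8.29 FPKM in SCNT, and fell in IVF (-1.08 ± 0.38, adjusted p = 0.0278). The NUP85 call was lost without IVF replicate 1 or 3 (adjusted p = 0.0847 and 0.0526) and without SCNT replicate 1 or 2 (adjusted p = 0.0531 and 0.116). NUP133 had 15.8 and 28.5 FPKM in KDM4E-SCNT, 20.6, 23.3 and 32.2 FPKM in IVF, and 17.4, 18.9 and 16.7 FPKM in SCNT, and NUP160 had 6.86 and 8.36 FPKM in KDM4E-SCNT, 5.81, 8.63 and 7.48 FPKM in IVF, and 10.54, 5.8 and 10.74 FPKM in SCNT. Neither of these scaffold subunits was called in any comparison, nor were NUP37 and NUP43.

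At the cytoplasmic side, NUP88 and NUP214, which form a subcomplex that binds XPO1, were higher in IVF than in SCNT, while RANBP2, the filament protein of that side, was lower. NUP88 had 97.7 and 131 FPKM in KDM4E-SCNT, 266, 148 and 229 FPKM in IVF, and 70.5, 66.8 and 82.1 FPKM in SCNT. The 3 groups did not overlap, and NUP88 rose in IVF against SCNT (1.50 ± 0.29, adjusted p = 0.000722), with 0.63 ± 0.32 in KDM4E-SCNT (adjusted p = 0.149). NUP214 had 4.07 and 3.51 FPKM in KDM4E-SCNT, 4.48, 2.80 and 3.93 FPKM in IVF, and 1.80, 1.07 and 1.39 FPKM in SCNT. It rose in IVF (0.96 ± 0.33, adjusted p = 0.0247), with 0.99 ± 0.37 in KDM4E-SCNT (adjusted p = 0.0562), and the IVF call was lost without IVF replicate 1 or 3 (adjusted p = 0.074 and 0.0693) and without SCNT replicate 2 or 3 (adjusted p = 0.0736 and 0.0627).

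RANBP2 (chromosome 11, 44509064 to 44570848) had 16.0 and 10.1 FPKM in KDM4E-SCNT, 3.05, 6.75 and 6.62 FPKM in IVF, and 29.2, 28.9 and 33.1 FPKM in SCNT. The groups did not overlap, and RANBP2 fell in IVF (-2.34 ± 0.34, adjusted p = 0.000108) and in KDM4E-SCNT (-1.19 ± 0.39, adjusted p = 0.032), each against SCNT. Without KDM4E-SCNT replicate 2 the second difference was -0.88 (adjusted p = 0.232), and without SCNT replicate 1, 2 or 3 its adjusted p was 0.0718, 0.0566 and 0.0929. It was also past 0.05 with a replicate block (0.0701), with no filter on low values (0.0551) and with mitochondrially encoded genes left out (0.0527). NUP98, a mobile nucleoporin whose precursor also yields the Y complex subunit NUP96, had 14.3 and 13.9 FPKM in KDM4E-SCNT, 16.4, 13.6 and 11.5 FPKM in IVF, and 21.8, 25.4 and 21.0 FPKM in SCNT. Every SCNT library was above the rest, and neither the IVF difference (-0.69 ± 0.29, adjusted p = 0.0543) nor the KDM4E-SCNT difference (-0.65 ± 0.32, adjusted p = 0.133) passed. The IVF difference did pass under all 3 scalings, the stricter filter and without IVF replicate 1 (limma, adjusted p from 0.0056 to 0.0474). The KDM4E-SCNT difference passed only under median-ratio scaling (limma, adjusted p = 0.021).

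**Figure D5:**
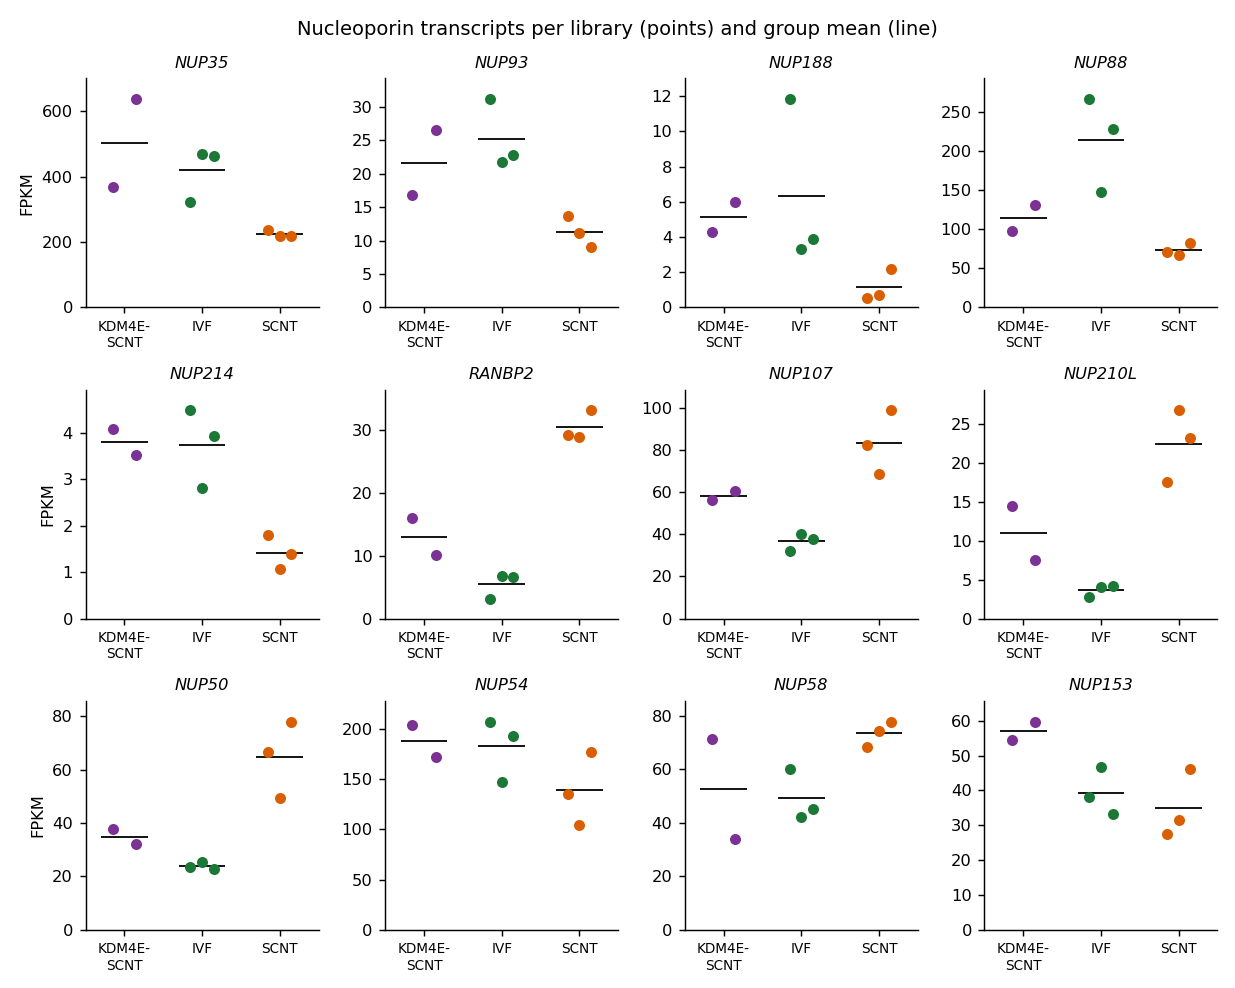
FPKM of 12 nucleoporin transcripts in each library, with a line at each group's mean and an axis from 0 in every panel. NUP35, NUP93, NUP188, NUP88 and NUP214 are lowest in SCNT, RANBP2, NUP107, NUP210L and NUP50 are highest there, and the groups overlap at NUP54. At NUP153 IVF and SCNT overlap, and both KDM4E-SCNT libraries lie above them.

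Of the 2 nuclear basket members, only NUP50 was called, and only in IVF against SCNT. NUP50, which helps to release cargo from importin alpha inside the nucleus, had 37.6 and 32.2 FPKM in KDM4E-SCNT, 23.6, 25.5 and 22.9 FPKM in IVF, and 66.8, 49.5 and 78.1 FPKM in SCNT. The groups did not overlap, and NUP50 fell in IVF against SCNT (-1.37 ± 0.28, adjusted p = 0.0011), with -0.85 ± 0.31 in KDM4E-SCNT (adjusted p = 0.052). The KDM4E-SCNT difference did pass under all 3 scalings, the stricter filter and without IVF replicate 2 or SCNT replicate 2 (limma, adjusted p from 0.00933 to 0.048). NUP153 had 54.5 and 59.8 FPKM in KDM4E-SCNT, 38.2, 46.7 and 33.3 FPKM in IVF, and 27.4, 31.4 and 46.1 FPKM in SCNT. Its KDM4E-SCNT libraries were the 2 highest, but none of its 3 differences passed, the largest of them 0.73 ± 0.33 against SCNT (adjusted p = 0.104). In the central channel, NUP54 had 204 and 172 FPKM in KDM4E-SCNT, 208, 148 and 193 FPKM in IVF, and 135, 105 and 177 FPKM in SCNT, and NUP58 had 71.2 and 33.8 FPKM in KDM4E-SCNT, 60.2, 42.0 and 45.3 FPKM in IVF, and 68.3, 74.4 and 77.9 FPKM in SCNT. No comparison of either gene passed.

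NUP210L, a relative of the membrane nucleoporin NUP210, had 14.5 and 7.51 FPKM in KDM4E-SCNT, 2.83, 4.05 and 4.21 FPKM in IVF, and 17.5, 26.7 and 23.1 FPKM in SCNT. It fell in IVF against SCNT (-2.31 ± 0.34, adjusted p = 0.00011). The KDM4E-SCNT libraries lay between the other groups without overlap, and neither their difference from SCNT (-1.01 ± 0.38, adjusted p = 0.0584) nor that from IVF (1.30 ± 0.38, adjusted p = 0.0644) passed. Their difference from SCNT did pass under all 3 scalings and the stricter filter (limma, adjusted p from 0.0144 to 0.0444). Under the stricter filter that from IVF passed too (limma, adjusted p = 0.0456). NUP210 itself was listed at 0 in 7 of 8 libraries and had 0.09 FPKM in IVF replicate 1.

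The KDM4E-SCNT libraries differed from each other along the IVF to SCNT axis. For the 29 members called between IVF and SCNT, the median position on the log2 scale was 50.6% of the way from the SCNT mean to the IVF mean in KDM4E-SCNT replicate 1 and 82.9% in replicate 2. Over all 8680 rows called between IVF and SCNT the medians were 54.8% and 79.4%. Replicate 2 lay further along that way for 25 of the 29 members (86.2%), beside 75.4% of all called rows. Without replicate 2, 4 members rose and 1 fell in KDM4E-SCNT against SCNT, and 6 were called higher in KDM4E-SCNT than in IVF. Over all rows tested that fit called 7.37% higher and 3.09% lower in KDM4E-SCNT against SCNT and 7.26% higher against IVF, and these 2 libraries are the whole of the group.

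The wider pathway was read from 44 listed genes, of which 40 were found by symbol and 39 tested; RAN itself was among those not found. In IVF against SCNT 9 rose and 13 fell (median -0.38), in KDM4E-SCNT against SCNT 5 rose and 5 fell (median -0.35), and in KDM4E-SCNT against IVF 1 rose and none fell (median 0.03; limma, 1 lower at an unadjusted p under 0.05). These were 23.1% higher and 33.3% lower in the first comparison and 12.8% each way in the second. Over all rows tested 34.9% were higher and 23.6% lower in the first (median 0.39), and 21.6% and 11% in the second (median 0.325). In the third, 5.9% of all rows were higher and 0.62% lower. Of 4 Ran cycle genes 2 fell in IVF against SCNT and none was called in KDM4E-SCNT (limma; 1 lower at an unadjusted p under 0.05). CSE1L, which returns importin alphas to the cytoplasm, had 18.9 and 19.7 FPKM in KDM4E-SCNT, 13.4, 22.7 and 15.03 FPKM in IVF, and 50.3, 22.2 and 33.3 FPKM in SCNT, with overlap between IVF and SCNT (-0.97 ± 0.35 in IVF against SCNT, adjusted p = 0.0292). The other was RANGRF, a Ran nucleotide release factor (-0.82 ± 0.33, adjusted p = 0.0466), also with overlap between IVF and SCNT. The CSE1L call was lost under 6 of the 18 alternatives, among them without IVF replicate 1 or 3 and without SCNT replicate 1 or 3 (adjusted p = 0.0921, 0.0867, 0.138 and 0.0722). The RANGRF call was lost under 10, among them without IVF replicate 2 or 3, SCNT replicate 1 or 3, or either KDM4E-SCNT library (adjusted p from 0.0519 to 0.194). NUTF2, the importer of Ran, had the smallest p of the list in KDM4E-SCNT against SCNT without passing (-0.76, adjusted p = 0.0904).

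Of 10 nucleoporins with other symbols, 4 fell and none rose in IVF against SCNT, and 2 fell and none rose in KDM4E-SCNT against SCNT (limma; 1 higher at an unadjusted p under 0.05 in the first and 0 in the second). AHCTF1, which places pores on chromatin, had 15.1 and 9.64 FPKM in KDM4E-SCNT, 3.1, 4.03 and 9.04 FPKM in IVF, and 32.9, 23.1 and 29.3 FPKM in SCNT, and it fell in IVF (-2.30 ± 0.38, adjusted p = 0.000233). SEH1L, a Y complex subunit outside the members, had 230 and 156 FPKM in KDM4E-SCNT, 152, 237.5 and 201 FPKM in IVF, and 283, 451 and 472 FPKM in SCNT. It was above NUP35 in each SCNT library, and it fell in IVF (-1.01 ± 0.29, adjusted p = 0.0104) and in KDM4E-SCNT (-1.04 ± 0.33, adjusted p = 0.0292), each against SCNT. The IVF call was lost without SCNT replicate 3 (adjusted p = 0.0543) and under quantile normalization (adjusted p = 0.195), and the KDM4E-SCNT call under 8 of the 18 alternatives, among them without KDM4E-SCNT replicate 2 and without SCNT replicate 2 or 3 (adjusted p = 0.207, 0.0753 and 0.105). NDC1, a membrane nucleoporin, had the smallest p of the list in KDM4E-SCNT against SCNT, where it fell (-1.36 ± 0.42, adjusted p = 0.0267), and that call was lost without either KDM4E-SCNT library and without SCNT replicate 1 or 2 (adjusted p from 0.0703 to 0.116). Of 25 RNA export genes 9 rose (36%) and 7 fell (28%) in IVF against SCNT, and 5 rose (20%) and 3 fell (12%) in KDM4E-SCNT against SCNT. These shares are near those of all rows tested. Beside the counts of both lists, 34.9% of all rows rose and 23.6% fell in the first comparison, and 21.6% and 11% in the second. NCBP2, the small subunit of the nuclear cap-binding complex, had 309 and 134 FPKM in KDM4E-SCNT, 44.1, 34.9 and 43.2 FPKM in IVF, and 595, 681 and 694 FPKM in SCNT, and it fell in IVF against SCNT (-3.98 ± 0.31, adjusted p = 1.31e-06). It also fell in KDM4E-SCNT against SCNT (-1.68 ± 0.35, adjusted p = 0.00404). Without KDM4E-SCNT replicate 2 that difference was -1.08 and the call was lost. NCBP2 was the 1 related gene called in KDM4E-SCNT against IVF (2.30 ± 0.35, adjusted p = 0.00164). THOC7, a subunit of the THO mRNA export complex, had 116 and 142 FPKM in KDM4E-SCNT, 176, 179 and 204 FPKM in IVF, and 35.4, 33.9 and 41.3 FPKM in SCNT, and it rose in IVF (2.31 ± 0.25, adjusted p = 1.25e-05) and in KDM4E-SCNT (1.78 ± 0.28, adjusted p = 0.00129), each against SCNT.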

How the data were processed

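The 8 libraries came from pools of bovine embryos in 3 groups, assigned from the labels. Per the submitters' processing notes, the tools were bcl2fastq 2.16, HISAT 0.1.6, StringTie 1.0.4, Bowtie2 2.2.5 and RSEM 1.2.12 on the cattle build UMD3.1, and their roles and settings are not given in the sources used here. The labels' protocols state poly(A) tailing and PCR amplification of the cDNA before library construction. The deposited tables hold FPKM per gene, to 2 decimals, as the authors made them and per the file headers, with no counts, so the depth per library is unknown and precision is judged only by the spread between libraries. A value of 0 can be an estimate that failed, so zeros are called listed at 0.

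Values were tested as log2(FPKM + 1), a scale that understates the change of low genes. Rows with at least 1 FPKM in at least 2 libraries were kept, 14839 of 21258. One model with group means over all 8 libraries was fitted to all of them with limma 3.58.1 in R 4.3.3 (trend, robust), and 3 comparisons were made, two-sided, with Benjamini-Hochberg adjustment within each and calls at an adjusted p under 0.05. The fitting script was tested on simulated data. Alternatives were 2 other low-value filters, a pseudocount of 0.1, 3 scalings, mitochondrially encoded genes left out, only the 2 groups compared, plain limma, a replicate block and each library left out. The members, role groups, related list, markers and tests were chosen with earlier results of these data known. Values per library are given for KPNA7 and, in each role group, for the 4 members of smallest p in IVF against SCNT, the 2 in KDM4E-SCNT against SCNT and the 1 in KDM4E-SCNT against IVF; for each related list, the 2 and the 1 of smallest p in the first and second comparison are named. KPNA5, KPNB1 and NUP210 were added after their values were seen. Coordinates are those of the files.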

Additional observations from a re-analysis of the deposited data

How the results depend on the processing

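Among 2622 values of single members under the 18 alternatives, 86 lost a call and 49 gained one. Gained calls included falls of NUP98 and IPO11 and a rise of TNPO2 in IVF, and falls of NUP50 and NUP210L in KDM4E-SCNT, each against SCNT. The sign changed in 97 values that were uncalled both ways and in no called value. Calls that held throughout were 6 of 14 higher and 12 of 15 lower members in IVF against SCNT, 4 of 7 and 1 of 7 in KDM4E-SCNT against SCNT, and 1 of 2 in KDM4E-SCNT against IVF; the causes of lost calls were not tested. Members higher in IVF than in SCNT numbered 14, with 7 under median-ratio scaling and 10 to 14 with a library left out, and those lower numbered 15, with 12 to 15. In KDM4E-SCNT against SCNT the 7 higher became 4 under median-ratio scaling and 4 to 8 with a library left out. The 7 lower became 4 with no filter, 11 under quantile normalization, 14 under median-ratio scaling and 1 to 8 with a library left out. Against IVF the 2 higher in KDM4E-SCNT became 1 to 6 with a library left out, and none was lower in any of these.

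Related genes in IVF against SCNT, 9 higher and 13 lower, became 4 and 20 under median-ratio scaling and 5 to 9 and 9 to 14 with a library left out. In KDM4E-SCNT against SCNT the 5 higher became 3 with no filter, 3 under quantile normalization, 2 under median-ratio scaling, 2 under upper-quartile scaling, 3 under plain limma and 1 to 5 with a library left out. The 5 lower became 2 with no filter, 13 under median-ratio scaling, 8 under upper-quartile scaling, 2 with mitochondrially encoded genes left out, 2 under plain limma and 0 to 6 with a library left out. Against IVF the 1 higher became 2 under the stricter filter, 2 with mitochondrially encoded genes left out and 1 to 3 with a library left out, and the 0 lower became 1 under quantile normalization and 0 to 1 with a library left out.

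Whether same-numbered libraries share a batch is not stated. The correlations of their deviations from the group means ran from 0.00649 to 0.123, all positive. Those of differently numbered libraries ran from -0.134 to 0.134. Deviations within so small a group are tied to each other, so these values cannot tell whether a batch was shared. With a replicate block, 13 members were higher and 15 lower in IVF against SCNT, and 7 were higher and 4 lower in KDM4E-SCNT against SCNT, where 2 related genes were higher. The calls it ended were those of IPO9 (adjusted p = 0.0582) in the first comparison and of RANBP2, XPO4 and RANBP6 (0.0701, 0.0501 and 0.053) in the second. With no filter on low values, KPNA3 and NUP155 lost their calls in IVF against SCNT, and RANBP2, XPO4, TNPO3 and NUP188 in KDM4E-SCNT against SCNT. With mitochondrially encoded genes left out, NUP85 and NUP155 lost theirs in the first, and RANBP2 and TNPO3 in the second. Quantile normalization ended those of NUP214, IPO9, XPO7 and 1 RANBP1 row in the first and of NUP188 in the second. Plain limma ended those of NUP155 in the first and TNPO3 in the second, upper-quartile scaling that of IPO9, and a fit of only the 2 groups compared that of TNPO3. FPKM gives no depth, so the lowest members, such as IPO9 and XPO7, carry an unknown counting error.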

Other observations

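Some rows are described in the files as pore or transport proteins but carry another symbol or none, and were outside the 52. The row with the symbol IL4I1 is described as the central channel nucleoporin p62, and it had 10.9 and 11.3 FPKM in KDM4E-SCNT, 13.84, 11.96 and 8.32 FPKM in IVF, and 9.25, 15.1 and 8.38 FPKM in SCNT, with no call in any comparison. A short row on chromosome 29 (50654119 to 50655720) described as nucleoporin p54 had 45.6 and 39.2 FPKM in KDM4E-SCNT, 52.0, 32.5 and 45.9 FPKM in IVF, and 32.3, 21.0 and 40.0 FPKM in SCNT, also with no call, and reads of NUP54 could be split with it. On the X chromosome, 4 overlapping rows of the authors' own assembly (60490052 to 60593777) are described as like nucleoporin 62, and reads could be split among them. Their values ran from 1.37 to 4.73 FPKM in KDM4E-SCNT, from 0 to 6.6 FPKM in IVF and from 0 to 2.61 FPKM in SCNT. BGI_novel_G005019, BGI_novel_G005020 and BGI_novel_G005021 were called higher in IVF against SCNT (limma, adjusted p = 0.0073, 0.0181 and 0.0112), and BGI_novel_G005022 was not (0.0611). In KDM4E-SCNT against SCNT, BGI_novel_G005019 and BGI_novel_G005022 were called higher (limma, adjusted p = 0.00855 and 0.00635), and the others were not (0.234 and 0.131). The choice of these rows was made with their values in view.

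The members spanned longer stretches of the genome than most rows tested. The median span was 37.6 kb for the 14 members higher in IVF than in SCNT, 48.1 kb for the 15 lower and 42.2 kb for the 20 uncalled, beside 27.2, 10.7 and 12.6 kb for the higher, lower and uncalled among all rows tested.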
